A study of Mus musculus with 13 samples.

Results

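The genes described here are 34 genes of the germline and of meiosis, chosen by name as genes that are often silenced by methylation of their promoters. All 34 were rows of the deposited count table of 24495 genes, and 12 of them passed the filter on low counts, among 14607 genes that did. The other 22 were at or near 0 in most libraries and are given by their counts. The values come from bulk RNA-seq of primary mouse embryonic fibroblasts (MEFs), taken at embryonic day 12.5 from V6.5 129XBI/6 embryos that lack Tet2 and carry the doxycycline-inducible reprogramming factors OKSM with rtTA. TET2 is an enzyme that oxidises methylated cytosine, a route by which methylation is removed. The 13 libraries fall into 4 groups, all Tet2-/-: Untreated fibroblasts (n = 3), and cells at day 5 of reprogramming that had received a pMXs retrovirus that was empty (pMXs, n = 3) or carried wild-type Tet2 (Tet2-WT, n = 3) or the stalling mutant of Tet2 (Tet2-E, n = 4). The day 5 cells grew on growth-arrested feeder fibroblasts with LIF, doxycycline at 2 µg/mL, the GSK3 inhibitor CHIR99021 at 3 µM and the MEK inhibitor PD0325901 at 1 µM. The growth protocol also names oxygen at 5%. No step that removes feeder cells is named, so a day 5 library can hold feeder RNA, and the Untreated cells differ from the day 5 cells in medium, feeders and virus as well as in the reprogramming factors. The labels do not make clear whether the Untreated cells carry the empty vector.

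Most of these genes work only in germ cells. In somatic cells many of them are held silent by repressors that bind their promoters (among them the E2F6 and MGA/MAX complexes) and by DNA methylation, which is erased in primordial germ cells. Their products pair and recombine the chromosomes in meiosis (cohesins, the synaptonemal complex, recombinases), make and use piRNAs, the small RNAs that silence transposons in the germline, or serve the transcription and the differentiation of sperm cells and oocytes.

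By their medians, the promoters of these genes were richer in GC and CpG than those of all genes, though the members varied widely. A RefSeq table of promoter windows (GRCm38.p6, from 250 bases before to 50 bases after the transcription start) held 29 of the 34 members, and not Piwil2, Tex15, Tex11, Rhox6 and Rhox9. Over the 29 members, with the first window listed for each gene, the median GC content was 60.0%, against 52.7% over 27025 genes. The median number of CpG dinucleotides was 20, against 7, and the median ratio of observed to expected CpG was 0.732, against 0.389. The letters CACGTG (the E-box bound by MAX partners) stood in 13 members (44.8%), against 7.24% of all genes. The letters TCCCGC (a core bound by E2F proteins) stood in 12 members (41.4%), against 20.0% of all genes. Both strands were searched, and the motifs can share a single base where they adjoin. CACGTG and TCCCGC each hold a CpG, and the comparison with all genes was not matched for CpG content. A match is a string of letters and not a measured binding site, and no methylation or binding was analysed here. The list was chosen for silencing by promoter methylation, so its CpG content is not independent of that choice.

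**Figure D1:**
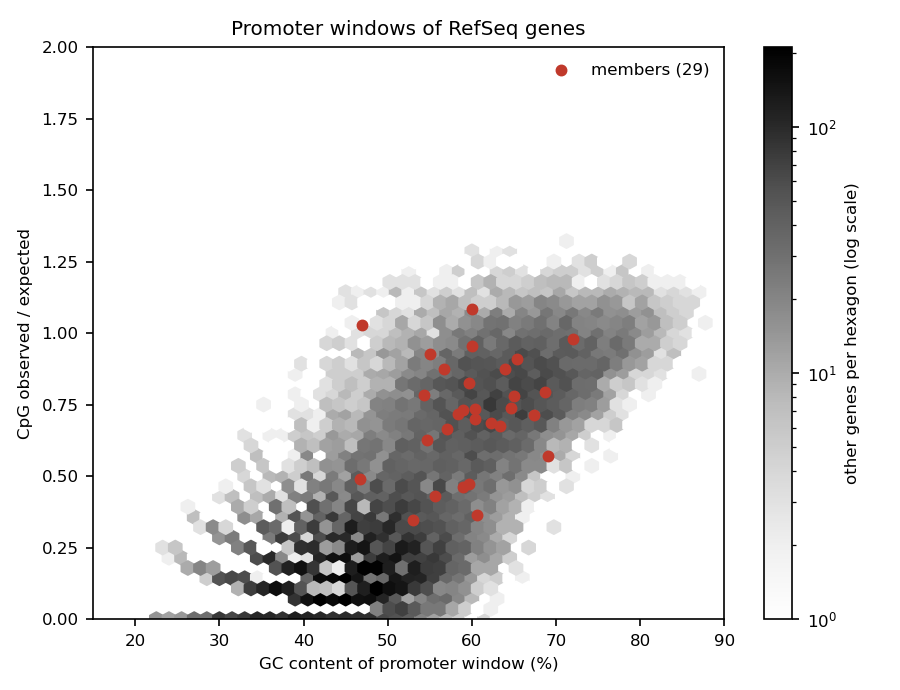
GC content in percent (x axis) against the ratio of observed to expected CpG (y axis) for promoter windows of RefSeq genes, as grey hexagons shaded by the number of genes on a log scale, with the 29 members as red points. The members' median ratio is 0.732, against 0.389 over all genes, and the members spread from 0.347 (Nlrp4c) to 1.08 (Smc1b).

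Windows of 4 members are printed because these genes had the smallest p-values among those that rose (Rec8, Tdrd1) and fell (Ddx4, Tdrkh) between Untreated and pMXs cells. CpG dinucleotides are in capitals. Rec8 lies at chr14:55617916-55618215 on the plus strand with 18 CpGs, and Tdrd1 at chr19:56825959-56826258 on the plus strand with 20 CpGs, the first of 3 windows listed for it. Tdrkh lies at chr3:94412994-94413293 on the plus strand with 25 CpGs, and Ddx4 at chr13:112652261-112652560 on the minus strand with 38 CpGs. The build named for the counts is mm9, so these windows serve only as sequence.
Rec8: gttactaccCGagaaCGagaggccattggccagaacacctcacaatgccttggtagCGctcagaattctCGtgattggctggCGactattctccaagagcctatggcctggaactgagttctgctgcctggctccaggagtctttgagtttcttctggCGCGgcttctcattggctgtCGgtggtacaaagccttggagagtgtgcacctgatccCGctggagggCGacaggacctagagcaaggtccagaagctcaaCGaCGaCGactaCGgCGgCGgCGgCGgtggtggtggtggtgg
Tdrd1: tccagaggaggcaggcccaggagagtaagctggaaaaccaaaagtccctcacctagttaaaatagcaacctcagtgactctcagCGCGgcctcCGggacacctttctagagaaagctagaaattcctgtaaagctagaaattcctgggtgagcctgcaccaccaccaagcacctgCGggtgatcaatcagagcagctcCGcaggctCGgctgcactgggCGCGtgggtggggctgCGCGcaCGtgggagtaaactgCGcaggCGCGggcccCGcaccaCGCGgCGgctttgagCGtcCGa
Tdrkh: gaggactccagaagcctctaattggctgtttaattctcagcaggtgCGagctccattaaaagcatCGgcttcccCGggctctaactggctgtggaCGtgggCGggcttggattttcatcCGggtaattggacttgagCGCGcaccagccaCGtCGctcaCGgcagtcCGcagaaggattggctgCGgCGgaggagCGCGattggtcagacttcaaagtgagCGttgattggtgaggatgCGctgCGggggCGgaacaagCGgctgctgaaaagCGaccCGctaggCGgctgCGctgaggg
Ddx4: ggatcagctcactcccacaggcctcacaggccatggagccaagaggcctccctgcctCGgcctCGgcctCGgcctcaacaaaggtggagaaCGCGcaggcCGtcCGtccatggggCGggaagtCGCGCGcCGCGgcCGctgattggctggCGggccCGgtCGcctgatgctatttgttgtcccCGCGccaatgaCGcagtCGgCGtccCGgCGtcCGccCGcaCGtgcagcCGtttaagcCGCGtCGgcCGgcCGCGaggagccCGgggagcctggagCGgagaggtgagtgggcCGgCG
The Ddx4 window held both CACGTG and TCCCGC, Tdrd1 held CACGTG, Rec8 held TCCCGC and Tdrkh held neither. Rec8 and Tdrd1, which rose, and Ddx4 and Tdrkh, which fell, all had CpG-rich windows, with ratios of observed to expected CpG of 0.716, 0.733, 0.978 and 0.956.

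Total counts were 14052646 to 26265382 per library, so 1 read was worth 0.0368 to 0.0692 CPM (counts-per-million, scaled by TMM). Replicates differed by more than counting error (chi-square per degree of freedom 6.30 to 40.9 over pairs of one group), and the labels do not say that they were separate cultures, so a p-value speaks only of the scatter among libraries, which may be technical. The Tet2 transcript was at 37.8 to 58.8 CPM in the Untreated and pMXs libraries, at 1176 to 1243 CPM with Tet2-WT and at 581 to 1403 CPM with Tet2-E, where replicate 100 was the lowest. All 11 fibroblast markers fell from Untreated to pMXs, and their summed level was 37694 to 40572 CPM in Untreated libraries, 16182 to 18368 CPM in pMXs libraries, 10255 to 11965 CPM in the Tet2-WT group and 13865 to 14992 CPM in the Tet2-E group. Of 8 markers of primordial germ cells outside the members, Pou5f1 (itself a reprogramming factor), Kit and Tfap2c rose from Untreated to pMXs, and the sum went from 4.72 to 6.25 CPM in Untreated to 231 to 259 CPM in pMXs libraries, 269 to 309 CPM in the Tet2-WT group and 210 to 282 CPM in the Tet2-E group. Pou5f1 made up most of that sum (2.32 CPM in Untreated and 211 CPM with pMXs on average), and Prdm1 and Dnd1 did not pass the test (adjusted p = 0.0678 and 0.799). In the same step 4 of 4 tested markers of pluripotent cells rose (Nanog, Esrrb, Tdgf1 and Utf1). The list held 7, and the others stayed below the filter: Zfp42 (0 to 8 reads per library), Dppa4 (0 to 2) and Dppa5a (0 to 2). From pMXs to Tet2-WT, Esrrb fell (log2 fold change -1.09 ± 0.34, adjusted p = 0.0485 by edgeR), while Nanog, Tdgf1 and Utf1 did not pass the test. The germ cell markers Dppa3 (0 to 3 reads per library) and Prdm14 (0 to 1 read) were near 0 in every group, and Nanos3 had 0 to 9 reads. Markers of the somatic cells of the gonad summed to 98.5 to 108 CPM in Untreated libraries, 35.5 to 40.4 CPM in pMXs libraries, 46.6 to 70.1 CPM in the Tet2-WT group and 35.9 to 38.2 CPM in the Tet2-E group. Mainly 2 genes that went opposite ways set these sums, Sox9 (90.7 CPM in Untreated and 7.70 CPM with pMXs) and Cyp11a1 (0.0498 and 21.3 CPM), so they do not describe the cell class. Fshr was at 0 in all libraries and Nr5a1 had 0 to 3 reads. In these bulk libraries fewer cells of a type and less RNA per cell cannot be told apart.

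The first question was how these genes changed from Untreated to pMXs cells at day 5. Medium and feeders changed in the same step, so the part of the reprogramming factors cannot be told apart. Rec8 rose by far the most, Tdrd1 about doubled, and 7 members fell, among them Ddx4, Sycp2, Sycp3, Brdt and Tdrkh. Sycp1, Piwil2 and Tex15 did not pass the test. Of the 12 members tested, 2 (16.7%) were higher and 7 (58.3%) lower by edgeR at an adjusted p under 0.05, against 35.0% higher and 35.0% lower of all genes tested. The members' median log2 fold change was -0.83, against -0.0013 for all genes. These shares carry no weight as a test, since a member that reaches the filter only in the group where it is high had to differ. Sycp2 reached the filter's level of about 0.455 CPM in the 3 Untreated libraries alone, and Ddx4 in the 3 Untreated and 3 of 10 day 5 libraries. The same step from Untreated to pMXs lowered the fibroblast markers listed above, and their part in these changes was not tested.

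**Figure D2:**
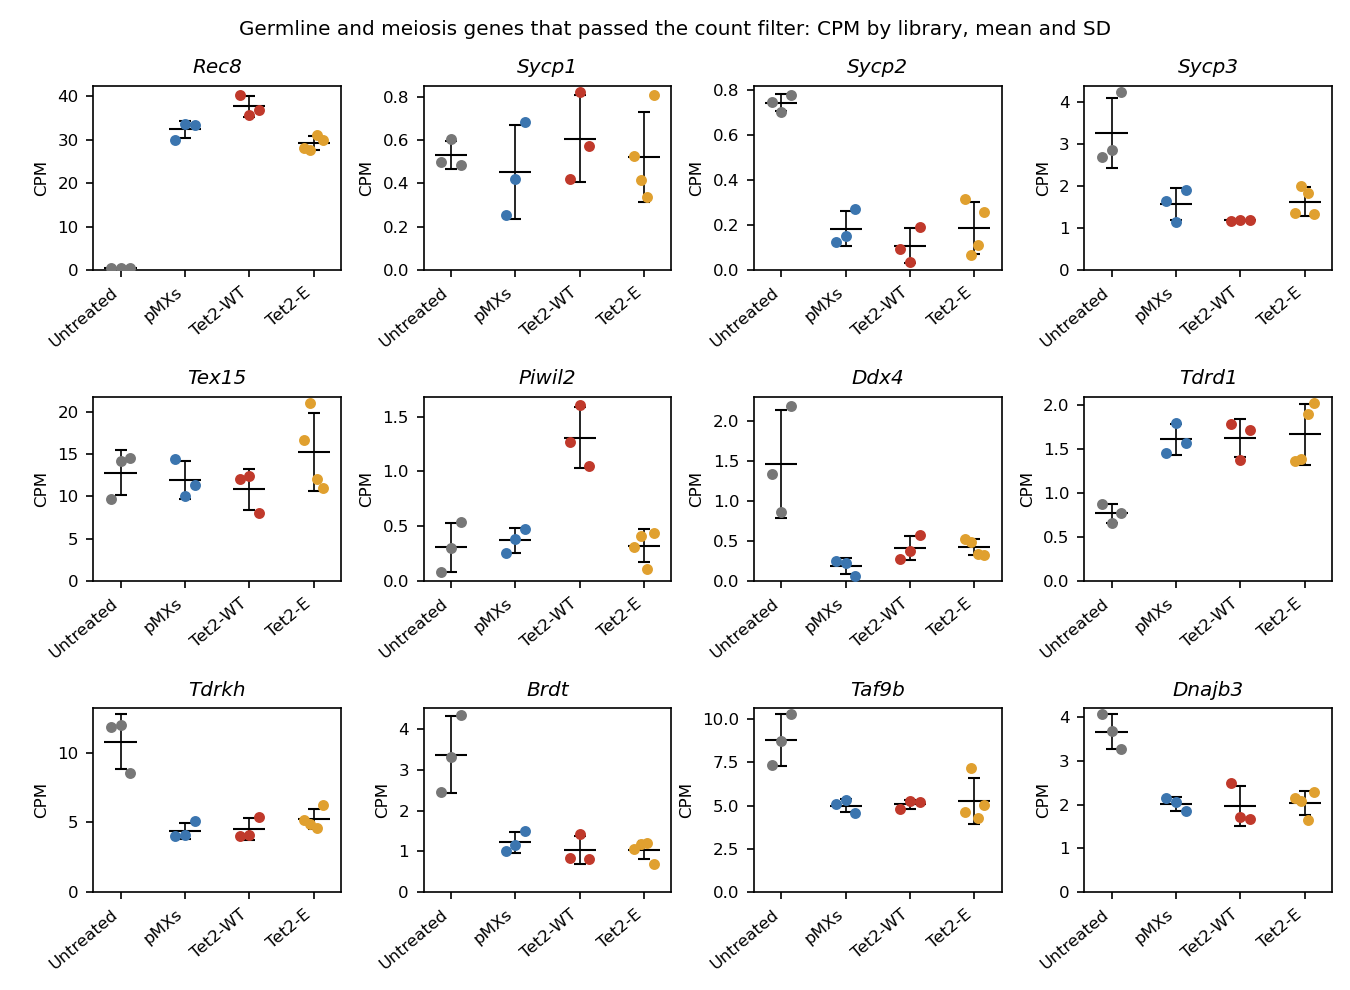
CPM per library (y axis, linear, each panel with its own scale) of the 12 members that passed the filter, by group (x axis); points are libraries, the long bar is the group mean and the error bar the SD between libraries (n = 3, 3, 3 and 4). Rec8 is near 0.494 CPM in Untreated cells and between 27.7 and 40.3 CPM in every day 5 library, while Piwil2 is above 1 CPM in the 3 Tet2-WT libraries and below 0.54 CPM in all others.

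Among the genes of meiotic chromosomes, Rec8 encodes the cohesin subunit that holds sister chromatids together in meiosis. It had 13, 9 and 10 reads in Untreated replicates 1, 2 and 100 (0.541, 0.453 and 0.487 CPM) and 473, 877 and 489 reads in pMXs replicates 2, 100 and 250 (30.0, 33.6 and 33.5 CPM). All day 5 libraries lay far above all Untreated ones. The change was 6.01 ± 0.13 on the log2 scale (SE), a 64.5-fold rise with an adjusted p of 4.28e-14.

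Sycp2, Sycp3 and Sycp1 build the synaptonemal complex, the axes and the zipper between paired chromosomes. Sycp2 was at 0.749, 0.705 and 0.779 CPM in Untreated replicates 1, 2 and 100 and at 0.127, 0.153 and 0.274 CPM in pMXs replicates 2, 100 and 250. It fell by 2.03 ± 0.47 (adjusted p = 0.00123), from 14 to 18 reads per library to 2 to 4. Sycp3 was at 2.71, 2.87 and 4.24 CPM in Untreated and at 1.65, 1.15 and 1.92 CPM with pMXs, with no overlap. It fell by 1.09 ± 0.25 (adjusted p = 0.00103).

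The value of Sycp3 is uncertain for another reason. On the GENCODE annotation of GRCm38, 52.2% of its exon bases lie over exons of Chpt1, a gene of phospholipid synthesis on the opposite strand, and whether reads were counted by strand is not given in the sources used here. Chpt1 had 971 to 1373 reads per Untreated library and 334 to 631 with pMXs, and it fell by a like amount (log2 fold change -1.20 ± 0.17, adjusted p = 1.09e-05). Reads of the pair cannot be told apart without strand. The fall of Sycp3 was also smaller within the libraries numbered 1 and 2, where pMXs has a single library (-0.75).

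Sycp1 did not pass the test, with 10 to 12 reads in Untreated and 4 to 11 with pMXs (-0.25 ± 0.43, adjusted p = 0.623). Tex15, which is needed for double-strand break repair in meiosis and for transposon silencing in male germ cells, stood at 9.74 to 14.6 CPM in Untreated and 10.1 to 14.5 CPM with pMXs, so the groups overlapped (-0.10 ± 0.25, adjusted p = 0.719). With 166 to 332 reads in every library, Tex15 was read in quantity in fibroblasts and in day 5 cells alike.

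Among the genes of the piRNA pathway, Ddx4 (Vasa) encodes the RNA helicase that marks germ cells. It had 32, 17 and 45 reads in Untreated replicates 1, 2 and 100 (1.33, 0.856 and 2.19 CPM) and 4, 6 and 1 reads in pMXs replicates 2, 100 and 250 (0.254, 0.230 and 0.0684 CPM). The groups did not overlap, and the 3 Untreated libraries differed more than 2-fold among themselves. Ddx4 fell by 2.88 ± 0.46 (adjusted p = 4.64e-05). Among the gonadal markers beside it, Sox9, Gata4 and Dhh also fell, while Cyp11a1 rose, and their part in the change of Ddx4 was not tested.

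Tdrd1 and Tdrkh are Tudor proteins that gather PIWI proteins at their sites of work. Tdrd1 was at 0.874, 0.655 and 0.779 CPM in Untreated and at 1.46, 1.80 and 1.57 CPM with pMXs, a rise of 1.07 ± 0.25 (adjusted p = 0.00129). Within the libraries numbered 1 and 2, where pMXs has a single library, the rise of Tdrd1 was smaller (0.91). Tdrkh went the other way. It was at 11.9, 12.0 and 8.52 CPM in Untreated and at 3.99, 4.06 and 5.06 CPM with pMXs, a fall of 1.31 ± 0.17 (adjusted p = 6.8e-06). On the same annotation 36.7% of the exon bases of Tdrkh lie over Oaz3 on the opposite strand, a gene of spermatids that had at most 18 reads in a library, against 63 to 285 for Tdrkh. Oaz3 fell too (-1.63 ± 0.49, adjusted p = 0.00747). Piwil2, a PIWI protein that carries piRNAs, had 2, 6 and 11 reads in Untreated and 4, 10 and 7 with pMXs, and did not pass the test (0.31 ± 0.58, adjusted p = 0.638).

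Among the genes of transcription and late differentiation, all 3 that were tested fell, where 35.0% of all genes tested fell. Brdt, the testis member of the BET family of readers of acetylated histones, was at 2.46, 3.32 and 4.33 CPM in Untreated replicates 1, 2 and 100 and at 1.01, 1.15 and 1.51 CPM in pMXs replicates 2, 100 and 250 (-1.47 ± 0.29, adjusted p = 0.000294). Taf9b, a subunit of general transcription complexes that is also used outside the germline, was at 7.33, 8.72 and 10.3 CPM in Untreated and at 5.07, 5.32 and 4.59 CPM with pMXs (-0.80 ± 0.18, adjusted p = 0.000874). Dnajb3, a co-chaperone of the testis, was at 4.08, 3.68 and 3.26 CPM in Untreated and at 2.16, 2.07 and 1.85 CPM with pMXs (-0.86 ± 0.20, adjusted p = 0.00114). None of the 3 had overlapping groups, and the share of all genes without overlap was not counted.

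The second question was what Tet2 adds at day 5, from pMXs to Tet2-WT. Piwil2 rose, and it was the only member called among the 12: 1 was higher (8.33%) and 0 lower, against 6.01% higher and 6.52% lower of all genes tested. The share of members called was thus close to that of all genes. Piwil2 had 27, 43 and 22 reads in Tet2-WT replicates 1, 2 and 250 (1.27, 1.60 and 1.05 CPM), against 4, 10 and 7 in pMXs replicates 2, 100 and 250 (0.254, 0.383 and 0.479 CPM). Every Tet2-WT library lay above every library of the other groups. The change was 1.81 ± 0.45 (adjusted p = 0.0148), a 3.51-fold rise.

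The call for Piwil2 is not firm at these counts. Without pMXs replicate 2 the change was 1.63 (adjusted p = 0.055), without pMXs replicate 100 it was 1.84 (adjusted p = 0.0682), and without Tet2-WT replicate 2 it was 1.63 (adjusted p = 0.0729). Within the libraries numbered 1 and 2, where pMXs has a single library, the change was 2.49. Within those numbered 100 and 250, where Tet2-WT has a single library, it was 1.31. Piwil2 entered the test mainly through the Tet2-WT libraries, where all 3 reached the filter's level, against 1 library in each other group.

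Of the 11 members not called, Rec8 and Ddx4 had groups that did not overlap. How often groups did not overlap over all genes was not counted, here or in the other comparisons. Rec8 was at 40.3, 35.6 and 36.9 CPM with Tet2-WT, each above the highest pMXs library at 33.6 CPM (0.22 ± 0.08, adjusted p = 0.0947). With a term for the set of label numbers, which links the day 5 libraries, Rec8 was called (0.25, adjusted p = 0.0459). Ddx4 had 6, 10 and 12 reads with Tet2-WT (0.281, 0.373 and 0.573 CPM), against a highest pMXs level of 0.254 CPM (1.05 ± 0.56, adjusted p = 0.26). The Tet2-WT level of Ddx4 stayed below the lowest Untreated library at 0.856 CPM. The other 9 lay between -0.77 (Sycp2) and 0.46 (Sycp1). For the lower direction, where edgeR and DESeq2 called 0 members, 0 had an unadjusted p under 0.05 by edgeR. In the same step 5 of 11 fibroblast markers fell and 1 rose, and their part in the rise of Piwil2 was not tested.

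The third comparison asked the same of the stalling mutant, from pMXs to Tet2-E. No member was called: 0 of 12 were higher or lower by edgeR, 0 had an unadjusted p under 0.05, and DESeq2 called 0, against 0.0205% higher and 0.0274% lower of all genes tested. With so few calls among all genes, a count of 0 among 12 says little about the members. Their changes ran from -0.25 (Brdt) to 1.04 (Ddx4). Ddx4 had 10, 7, 9 and 9 reads in Tet2-E replicates 1, 2, 100 and 250 (0.524, 0.484, 0.336 and 0.331 CPM), all above the pMXs libraries (1.04 ± 0.53, adjusted p = 0.576). Piwil2 had 6, 6, 3 and 12 reads (0.315, 0.415, 0.112 and 0.442 CPM), 3 libraries within the pMXs range and 1 below it (-0.25 ± 0.53, adjusted p = 0.93). Rec8 was at 28.2, 27.7, 31.1 and 29.9 CPM and overlapped with pMXs (-0.15 ± 0.08, adjusted p = 0.582).

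The direct comparison of Tet2-WT with Tet2-E tests the difference between the enzymes. Piwil2 and Rec8 were higher with Tet2-WT, and no member was lower: 2 of 12 (16.7%) and 0, against 2.43% higher and 2.19% lower of all genes tested. These shares carry no weight as a test, since Piwil2 entered the test mainly through the Tet2-WT libraries. Piwil2 was 4.18-fold higher (2.06 ± 0.41, adjusted p = 0.00813), with 1.31 ± 0.28 CPM (SD, n = 3) for Tet2-WT and 0.321 ± 0.150 CPM (SD, n = 4) for Tet2-E. Rec8 was 1.28-fold higher (0.36 ± 0.07, adjusted p = 0.00977), with 37.6 ± 2.44 CPM (SD, n = 3) against 29.2 ± 1.60 CPM (SD, n = 4). For both genes the lowest Tet2-WT library lay above the highest Tet2-E library.

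Single libraries carried these calls as well. Without Tet2-WT replicate 2, Piwil2 was not called (1.88, adjusted p = 0.0607), and without Tet2-WT replicate 1, Rec8 was not (0.31, adjusted p = 0.08). Within the libraries numbered 100 and 250, where Tet2-WT has a single library, the values were 1.90 for Piwil2 (adjusted p = 0.097) and 0.27 for Rec8 (adjusted p = 0.23); within those numbered 1 and 2 they were 2.00 (adjusted p = 0.0175) and 0.44 (adjusted p = 0.0055).

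The other 10 members tested lay between -0.89 (Sycp2) and 0.21 (Sycp1) in Tet2-WT against Tet2-E. Sycp3 stood at 1.17, 1.19 and 1.19 CPM with Tet2-WT, below all 4 Tet2-E libraries at 1.33 to 2.01 CPM, and was not called (-0.44 ± 0.25, adjusted p = 0.45). Tex15 was at 12.1, 12.4 and 8.03 CPM with Tet2-WT and at 16.6, 21.1, 12.1 and 11.0 CPM in Tet2-E replicates 1, 2, 100 and 250, so the groups overlapped (-0.46 ± 0.23, adjusted p = 0.364). Within the libraries numbered 1 and 2 alone it was lower with Tet2-WT (-0.61, adjusted p = 0.0231). For the lower direction edgeR and DESeq2 called 0 members, and 0 had an unadjusted p under 0.05 by edgeR. Of the fibroblast markers, 4 of 11 were lower with Tet2-WT than with Tet2-E and 0 higher, and their part in the differences of Piwil2 and Rec8 was not tested.

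**Figure D3:**
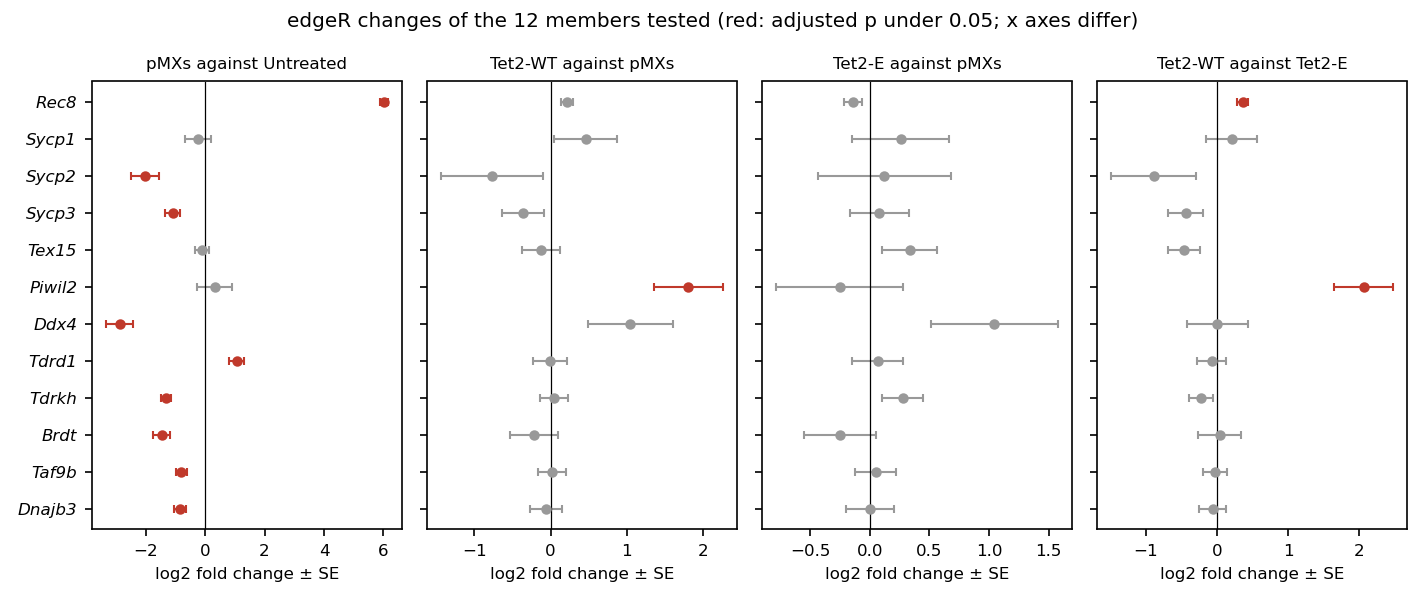
Log2 fold change (x axis, a scale of its own in each panel) with its SE for the 12 members tested (y axis) in the 4 comparisons, with members at an edgeR adjusted p under 0.05 in red and the others in grey. The panel of pMXs against Untreated holds 9 red points, from -2.88 (Ddx4) to 6.01 (Rec8), that of Tet2-WT against pMXs 1 (Piwil2), that of Tet2-E against pMXs 0 and that of Tet2-WT against Tet2-E 2 (Piwil2 and Rec8).

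The other 22 members were read so rarely that the filter left them out. Mael (piRNA biogenesis) and Rhox9 (a homeobox gene of the germline on the X chromosome) had 0 reads in all 13 libraries. A count of 0 over a group allows up to 3 reads, which is 0.0426 CPM over the Untreated libraries, 0.0545 CPM over pMXs, 0.0448 CPM over Tet2-WT and 0.0352 CPM over Tet2-E, for counting error only (in this paragraph CPM is the share of the total count, without TMM). Summed over the 22 genes, the groups held 89, 51, 114 and 100 reads for Untreated, pMXs, Tet2-WT and Tet2-E, or 1.26, 0.927, 1.70 and 1.17 CPM. Per library the sums were 0.819 to 1.60 CPM in Untreated libraries, 0.780 to 1.03 CPM in pMXs libraries, 1.43 to 2.15 CPM in the Tet2-WT group and 0.916 to 1.39 CPM in the Tet2-E group. The Tet2-WT libraries lay above all pMXs and Tet2-E libraries and overlapped with Untreated. Hormad1, Tex11 and Dazl held 20, 17 and 16 of the 114 Tet2-WT reads. No test was made on this sum, and it was not set beside the other genes below the filter.

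Tex11, an X-linked gene needed for crossing over in male meiosis, had 7, 2 and 3 reads in Untreated replicates 1, 2 and 100 and 1, 0 and 0 in pMXs replicates 2, 100 and 250. It had 5, 6 and 6 reads in Tet2-WT replicates 1, 2 and 250 and 2, 3, 3 and 3 in Tet2-E replicates 1, 2, 100 and 250. Only the pMXs libraries were nearly empty of it. In an edgeR fit with no filter, over 20548 genes and 32 members, Tex11 fell from Untreated to pMXs (-3.00, adjusted p = 0.0132) and rose from pMXs to Tet2-WT (3.42, adjusted p = 0.022). It was the only one of the 22 called in that fit, in which 10393 and 1697 genes were called in these comparisons. Tet2-WT against Tet2-E did not pass the test for Tex11 (0.93, adjusted p = 0.618).

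A few other genes had their highest level with Tet2-WT, and none passed the test. Hormad1, which marks unpaired chromosome axes, had 9, 7 and 4 reads in Tet2-WT replicates 1, 2 and 250, 0 in the Untreated libraries, 3 in all with pMXs and 9 in all with Tet2-E (adjusted p = 0.126 against pMXs and 0.434 against Tet2-E with no filter). Dazl, an RNA-binding regulator of germ cell translation, had 4, 9 and 3 reads with Tet2-WT, against 3 in all with pMXs, 4 with Tet2-E and 11 in Untreated (adjusted p = 0.19 and 0.165). Its Untreated libraries, with 3, 1 and 7 reads, overlapped with Tet2-WT. Fkbp6, a co-chaperone of the piRNA pathway, had 2 reads in each Tet2-WT library and 0 in the other 10 libraries (adjusted p = 0.181 and 0.187).

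Other genes had their highest level in Untreated cells. Dmc1, the recombinase of meiosis, had 5, 4 and 6 reads in Untreated replicates 1, 2 and 100 and 0 to 4 in each day 5 library, 15 reads in Untreated and 3, 6 and 7 in the pMXs, Tet2-WT and Tet2-E groups (adjusted p = 0.0524 from Untreated to pMXs with no filter). Stra8, which starts meiosis in response to retinoic acid, had 1, 1 and 3 reads in Untreated, 0 with pMXs and 1 in all in each of Tet2-WT and Tet2-E (adjusted p = 0.0676). Stk31, a kinase-like Tudor protein, had 4 reads in Untreated, and 1, 0 and 1 in the day 5 groups, and Asz1, a mitochondrial scaffold of the piRNA pathway, had 2 reads in a single Untreated library and 0 elsewhere.

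Smc1b, the meiotic cohesin partner of Rec8, was the most read of the 22, with 3 to 8 reads in every library and 69 in all. From Untreated (13 reads) to pMXs (18 reads), where Rec8 rose, Smc1b did not pass the test with no filter (0.66, adjusted p = 0.301). Syce1, a central element of the synaptonemal complex, had 46 reads in all and 9 to 14 in each group. Tex14, of the bridges between germ cells, had 27 reads, Taf7l, a germline transcription subunit, had 17, and Slc25a31, an ADP/ATP carrier of sperm, had 13, of which 0 with pMXs. The other 7 of these genes (Mei1, Tex101, Nlrp4c, Dpep3, Tuba3a, Mov10l1 and Rhox6) had 1 to 5 reads over all 13 libraries, at which depth no difference between groups was detectable. Tuba3a has a near-identical copy, Tuba3b, with which reads can be shared.

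**Figure D4:**
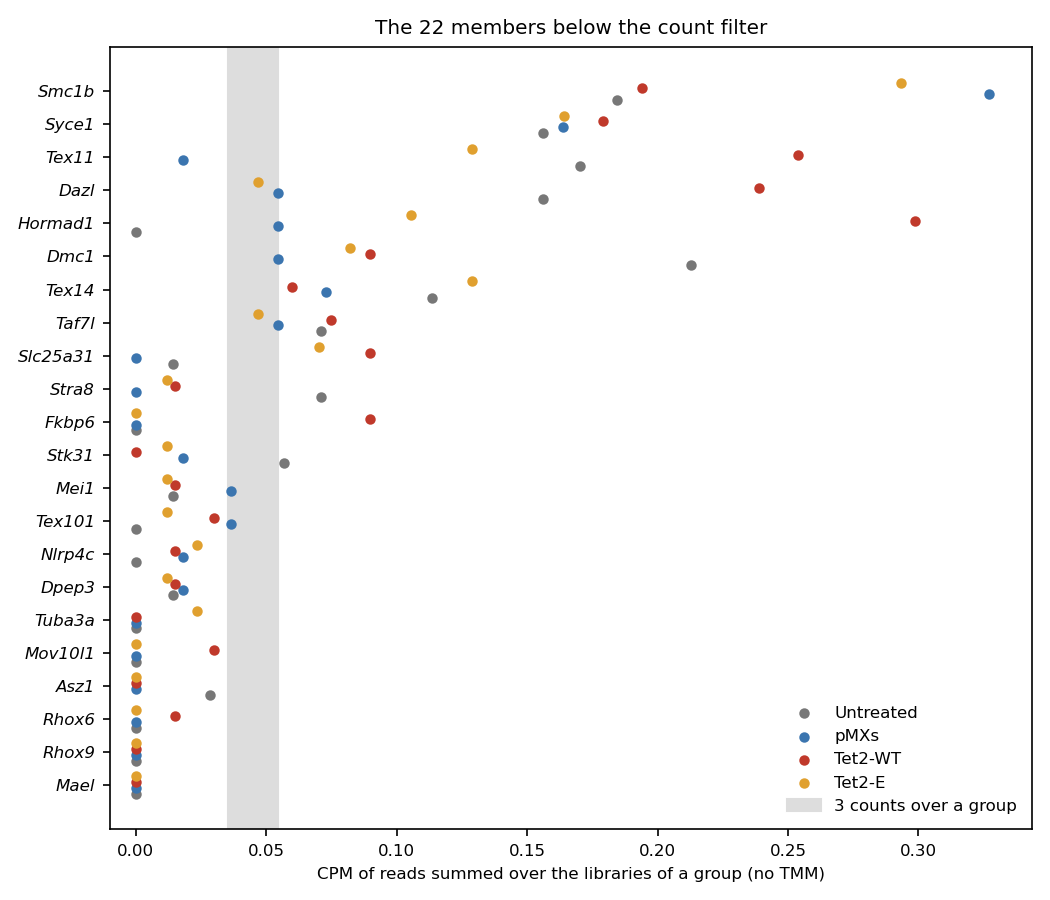
CPM of the reads summed over the libraries of a group, without TMM (x axis), of the 22 members below the filter (y axis, ordered by total reads), with a point per group (Untreated, pMXs, Tet2-WT, Tet2-E); the grey band spans 3 reads over a group. All points lie below 0.33 CPM, Hormad1, Dazl and Tex11 have their highest point with Tet2-WT, and Dmc1 has its highest in Untreated.

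Other genes of the same pathways were counted beside the shares of all genes given above: 35.0% higher and 35.0% lower in pMXs against Untreated, 6.01% and 6.52% in Tet2-WT against pMXs, 0.0205% and 0.0274% in Tet2-E against pMXs, and 2.43% and 2.19% in Tet2-WT against Tet2-E. Calls outside the step from Untreated to pMXs were thus rare among all genes. Of 16 tested genes of meiotic chromosomes that are not members, 4 rose, 1 fell and 11 did not pass in pMXs against Untreated, and 0 were called in the other 3 comparisons. Trip13, the remodeller that takes HORMA proteins off chromosomes, rose from 8.60 to 23.4 CPM (1.44 ± 0.13, adjusted p = 9.22e-08), and Mei4, of the double-strand break machinery, rose from 0.769 to 1.69 CPM (1.15 ± 0.31, adjusted p = 0.00359). Mlh3, a mismatch repair and crossover factor, fell from 37.4 to 31.4 CPM (-0.25 ± 0.09, adjusted p = 0.0251), a call lost when Untreated 2, Untreated 100 or pMXs 250 was left out (adjusted p = 0.0541, 0.084 and 0.111). Over 15 alternative fits of pMXs against Untreated, Trip13 was called in 15, Mei4 in 14 and Mlh3 in 10. Trip13 is a gene of dividing cells too.

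A list made by name for the piRNA pathway held 8 tested genes outside the members. It includes Tdrd3 and Fkbpl, for which a part in the pathway is not shown here. Of the 8, 3 rose, 1 fell and 4 did not pass in pMXs against Untreated, where 35.0% of all genes rose and 35.0% fell. Mybl1, the regulator of piRNA clusters in meiosis, rose from 26.7 to 87.0 CPM (1.70 ± 0.13, adjusted p = 1.59e-08), and Tdrd7 fell from 31.8 to 11.4 CPM (-1.49 ± 0.10, adjusted p = 5.2e-09). Ddx25, a helicase of spermatids, rose from 0.834 to 1.48 CPM (0.80 ± 0.25, adjusted p = 0.0105; 0.057 without pMXs replicate 2). In Tet2-WT against pMXs 2 of the 8 rose and 6 did not pass, where 6.01% of all genes rose. Tdrd7 rose by 0.43 ± 0.10 (adjusted p = 0.0132), a call lost without pMXs replicate 100 or Tet2-WT replicate 1 (adjusted p = 0.0675 and 0.0523). Tdrd3 rose by 0.23 ± 0.07 (adjusted p = 0.0467), a call lost without any of the 6 libraries in turn (adjusted p = 0.0621 to 0.154). Over 15 alternative fits of pMXs against Untreated, Mybl1 and Tdrd7 were called in 15 and Ddx25 in 13. Over 15 of Tet2-WT against pMXs, Tdrd7 was called in 11 and Tdrd3 in 4. None of the 8 was called in the comparisons with Tet2-E.

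Of 12 tested genes of germ cells and gametes, 5 rose, 4 fell and 3 did not pass in pMXs against Untreated, where 35.0% of all genes rose and 35.0% fell. These counts carry no weight as a test, since genes near the floor are among them. Tex19.1 counts as risen from 0 reads to 1, 2 and 2, and Lhx8 as fallen from 6, 12 and 11 reads to 0, 0 and 1. The largest rises at 1 CPM or more were of Sall4 (0.0498 to 12.2 CPM, adjusted p = 2.61e-10) and Kit (1.18 to 13.8 CPM, 3.54 ± 0.26, adjusted p = 1.32e-08), both of which are also expressed in pluripotent or other stem cells. Gfra1, the GDNF receptor of spermatogonia, fell from 23.9 to 5.66 CPM (-2.09 ± 0.32, adjusted p = 4.6e-05). In Tet2-WT against pMXs, 2 rose (Zcwpw1 and Tex19.1) and 10 did not pass, and in Tet2-WT against Tet2-E 1 rose (Tex19.1). Tex19.1, named after its values were seen, reached the filter's level only in the Tet2-WT libraries, so it had to differ. Zcwpw1, a reader of the histone marks left at meiotic hotspots, rose by 0.59 ± 0.15 over pMXs (adjusted p = 0.0191), a call lost without pMXs replicate 100 or 250 or Tet2-WT replicate 1 or 2 (adjusted p = 0.0598, 0.0919, 0.0506 and 0.0865). Over 15 alternative fits in this comparison, Zcwpw1 was called in 9.

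A list of factors that set, read or remove the silencing of germline promoters held 32 tested genes, among them Tet1, Tet2, Tet3 and Tdg, which act in removing DNA methylation. In pMXs against Untreated 18 rose, Tet3 among them, 2 fell and 12 did not pass, where 35.0% of all genes rose and 35.0% fell. Dnmt3b, a de novo DNA methyltransferase, rose from 2.42 to 8.26 CPM (1.77 ± 0.16, adjusted p = 1.26e-07), and Hells, a remodeller needed for DNA methylation, from 14.3 to 46.5 CPM (1.70 ± 0.11, adjusted p = 2.87e-09). Ring1 of the Polycomb complexes (-0.60 ± 0.10, adjusted p = 9.4e-05) and the methyl-CpG reader Mbd2 (-0.35 ± 0.07, adjusted p = 0.000309) fell. In Tet2-WT against pMXs, Max and the supplied Tet2 rose, Dnmt3a fell, and 29 did not pass. Max rose by 0.23 ± 0.07 (adjusted p = 0.0304), and the call was lost without pMXs replicate 2 or 250 or Tet2-WT replicate 1 or 2 (adjusted p = 0.0752 to 0.139). Dnmt3a fell by 0.38 ± 0.11 (adjusted p = 0.0309), and the call was lost without pMXs replicate 2 or 250 or Tet2-WT replicate 2 or 250 (adjusted p = 0.0541 to 0.127). Over 15 alternative fits in this comparison, Max was called in 8 and Dnmt3a in 11. In Tet2-E against pMXs only Tet2 was called, and in Tet2-WT against Tet2-E 0 of the 32.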

How the data were processed

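The authors deposited raw read counts per gene for all 13 libraries from stranded mRNA libraries. The submitters' processing notes name mm9, STAR 2.6.1a, featureCounts 1.6.2, DESeq2 1.26.0, bedtools 2.27.1, SAMtools 1.7 and R 3.6.2, with no role given. Whether counting used strand is not given in the sources used here. In R 4.3.3, edgeR 4.0.16 kept genes by filterByExpr (count minimum 10, total minimum 15), scaled by TMM and fitted 1 robust quasi-likelihood model with a mean per group for all 4 comparisons. P-values were adjusted by Benjamini-Hochberg over the 14607 genes tested, and a gene rose or fell where its value was under 0.05. SE is the log2 fold change divided by the square root of F. Alternatives were RLE scaling, DESeq2 1.42.0, no filter, 1 CPM in 3 libraries, a replicate block, a set term, contrasts within sets, fits of the compared groups alone, and omission of each library in turn. Day 5 libraries with the same label number correlated in their deviations from the group means (r 0.125 to 0.442 in 8 pairs), as did those of the same set of numbers (1 with 2, 100 with 250; 0.0843 to 0.457), against -0.532 to -0.0939 across sets; same-number pairs with Untreated gave -0.0572 to 0.226. The numbers thus link the day 5 libraries through sets, which the labels do not spell out. Exon overlaps come from GENCODE on GRCm38 by gene name. All 34 members are reported; other genes named are Tet2, marker genes and, from each list, up to 2 that rose and 2 that fell most with at least 1 CPM in a group. Members and lists were chosen with earlier results of these data known. The fits were tested on simulated data.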

Additional observations from a re-analysis of the deposited data

Results flagged for a closer look

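Tet2 in Tet2-E replicate 100 was at 581 CPM, against 1299 to 1403 CPM in the other 3 Tet2-E libraries, a gap wide enough to set it apart from its group. Of 13 genes checked in this way in the Tet2-E group it was the only one, and chance sets apart about 1 in 20. No member stood apart in that library. Piwil2 in it had 3 reads, the fewest of the 4, and Rec8 was the highest of the 4 at 31.1 CPM.

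Piwil2 and Rec8 differed between Tet2-WT and Tet2-E by a test of that difference itself, which Piwil2 entered mainly through the Tet2-WT libraries. Over the same pMXs libraries Piwil2 changed by 1.81 with Tet2-WT and by -0.25 with Tet2-E, and the difference was 2.06 (adjusted p = 0.00813 by edgeR). Rec8 changed by 0.22 with Tet2-WT and by -0.15 with Tet2-E, and the difference was 0.36 (adjusted p = 0.00977 by edgeR). In both cases 3 of 3 Tet2-WT libraries lay above 4 of 4 Tet2-E libraries, and how often this held over all genes was not counted.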

How the results depend on the processing

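No member change that was called reversed its sign under any alternative. In Tet2-WT against pMXs, 2 members were higher with no filter (Piwil2 and Tex11) and 2 with the set term (Piwil2 and Rec8, 0.25, adjusted p = 0.0459), 0 within the numbers 100 and 250, and 0 to 1 when a library was left out. In Tet2-WT against Tet2-E, 0 were higher within the numbers 100 and 250 and 1 to 2 when a library was left out, and 1 was lower within the numbers 1 and 2 (Tex15). In pMXs against Untreated, 1 was higher within the numbers 1 and 2 (Rec8). The number lower there ran from 5 (at least 1 CPM in 3 libraries) to 8 (DESeq2 and no filter). The replicate block, with the label number as a term, changed no count of members called: 2 higher and 7 lower in pMXs against Untreated, 1 higher in Tet2-WT against pMXs and 2 higher in Tet2-WT against Tet2-E, with Piwil2 at 1.89 (adjusted p = 0.0273) and 2.07 (adjusted p = 0.0123). RLE scaling moved the median of all genes by less than 0.01 in each comparison. Of 455 alternative values for the 30 member changes given only by range, 73 had the opposite sign and 0 were called. Low read counts limit Piwil2, Sycp2, Ddx4 and the 22 members below the filter, and leaving out libraries was not run without the filter.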

Other observations

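The genes given here are not members and were singled out after their values were seen, so only values are given. Tex19.1, a gene of germ cells, placenta and pluripotent cells, had 0 reads in the Untreated libraries and 1, 2 and 2 in pMXs replicates 2, 100 and 250. It had 13, 20 and 12 reads in Tet2-WT replicates 1, 2 and 250 (0.610, 0.746 and 0.573 CPM), and 1 in each of the 4 Tet2-E libraries. It reached the filter's level of about 0.455 CPM in the Tet2-WT libraries alone. Cyp11a1, which makes pregnenolone in steroid-producing cells and stands among the gonadal markers, had 0, 2 and 1 reads in Untreated, 315 to 524 in pMXs libraries, 648 to 1360 in the Tet2-WT group and 288 to 562 in the Tet2-E group.

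Among oocyte genes, Lhx8 had 6, 12 and 11 reads in Untreated replicates 1, 2 and 100 and 0, 0 and 1 in pMXs replicates 2, 100 and 250. Gdf9 had 15, 17 and 23 reads in Untreated and 3, 13 and 6 with pMXs. With Tet2-WT and Tet2-E, Lhx8 had 1 to 7 reads per library and Gdf9 1 to 14.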
